A study of Mus musculus with 32 samples.

Results

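Genes of prostaglandin synthesis, transport, breakdown and reception were followed in the uterus of the mouse before and during pregnancy. Prostaglandins are made from arachidonic acid, which phospholipases free from membranes. The cyclooxygenases Ptgs1 and Ptgs2 turn it into the intermediate PGH2, from which terminal synthases make PGE2, prostacyclin, PGD2 and the other end products. The transporter Slco2a1 carries prostaglandins into cells, where Hpgd inactivates them, and PGE2 acts through the receptors EP1 to EP4. In the uterus these lipids are known for their part in implantation and decidualization and, near term, in contraction of the myometrium.

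The genes were chosen by symbol, as 10 members: Ptgs1, Ptgs2, Ptges, Ptgis, Hpgd, Slco2a1, Ptgfr, Ptger2, Ptger3 and Ptger4. A probe with the member's symbol was found for 6 of them, Ptges, Ptgis, Hpgd, Slco2a1, Ptger2 and Ptger3, out of 13439 genes tested. The other 4, Ptgs1, Ptgs2, Ptgfr and Ptger4, were not analysed here. Of the 20169 probes kept, 1266 carry no symbol in the annotation used. All 6 measured genes passed the filter on dim probes, which kept a probe detected on at least 1 of 32 arrays (detection p-value of at most 0.05).

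The 32 Illumina MouseRef-8 v2 arrays held RNA of 1 FVB/N mouse each. They were untreated wild type mice, either non-pregnant (NP) or at 6 embryonic days (E) of pregnancy. NP, E6.5 and E8.5 had 4 mice each. The later days, which were E10.5, E12.5, E15.5 and also E17.5, had 5 mice each. Pregnant uteri were sampled where an embryo lay and cleared of conceptus and decidua before RNA extraction. No such dissection is described for NP uteri, so pregnancy and dissection cannot be told apart in comparisons with NP. Because the tissue was measured in bulk, fewer cells of a type and less RNA per cell cannot be told apart either. Since each array held 1 mouse, the p-values rest on the spread between mice, estimated for each gene over all 7 groups together.

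Between 13280 and 14357 probes were detected per array. Smooth muscle genes (10 of 10 listed, among them Myh11 and Acta2) had a mean between 10.3 and 11.3 on the log2 scale in every library, and stroma genes (9 of 9) between 9.20 and 10.52. In 7 libraries placenta genes (11 of 18 measured) or yolk sac genes (14 of 16 measured) had a list mean that exceeded the median of that embryonic day by more than 0.5 log2. These were 1 mouse of E10.5 (replicate 4) and pairs of mice of E12.5 (1 and 3), of E15.5 (2 and 3) and of E17.5 (2 and 5). The placenta list reached 7.72 in these libraries, and the yolk sac list 10.9. Results that rest on these libraries are given with and without them.

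Values are log2 intensities after background correction and quantile normalisation. In the text ± is the standard deviation (SD) after a mean, and the standard error (SE) after a difference. A gene is said to have risen or fallen where limma's p-value, adjusted over all 13439 genes, was at most 0.05. Within pregnancy, 2 of the 6 genes differed between the 6 time points by limma's F test, Ptger3 (adjusted p = 8.18e-09) and Slco2a1 (adjusted p = 0.000356), where 37.9 percent of all genes did. The largest difference between means of 2 pregnant time points was 6.86-fold for Ptger3 and 3.73-fold for Slco2a1. Hpgd (adjusted p = 0.0618), Ptges (0.202), Ptger2 (0.212) and Ptgis (0.467) did not pass this test.

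**Figure D1:**
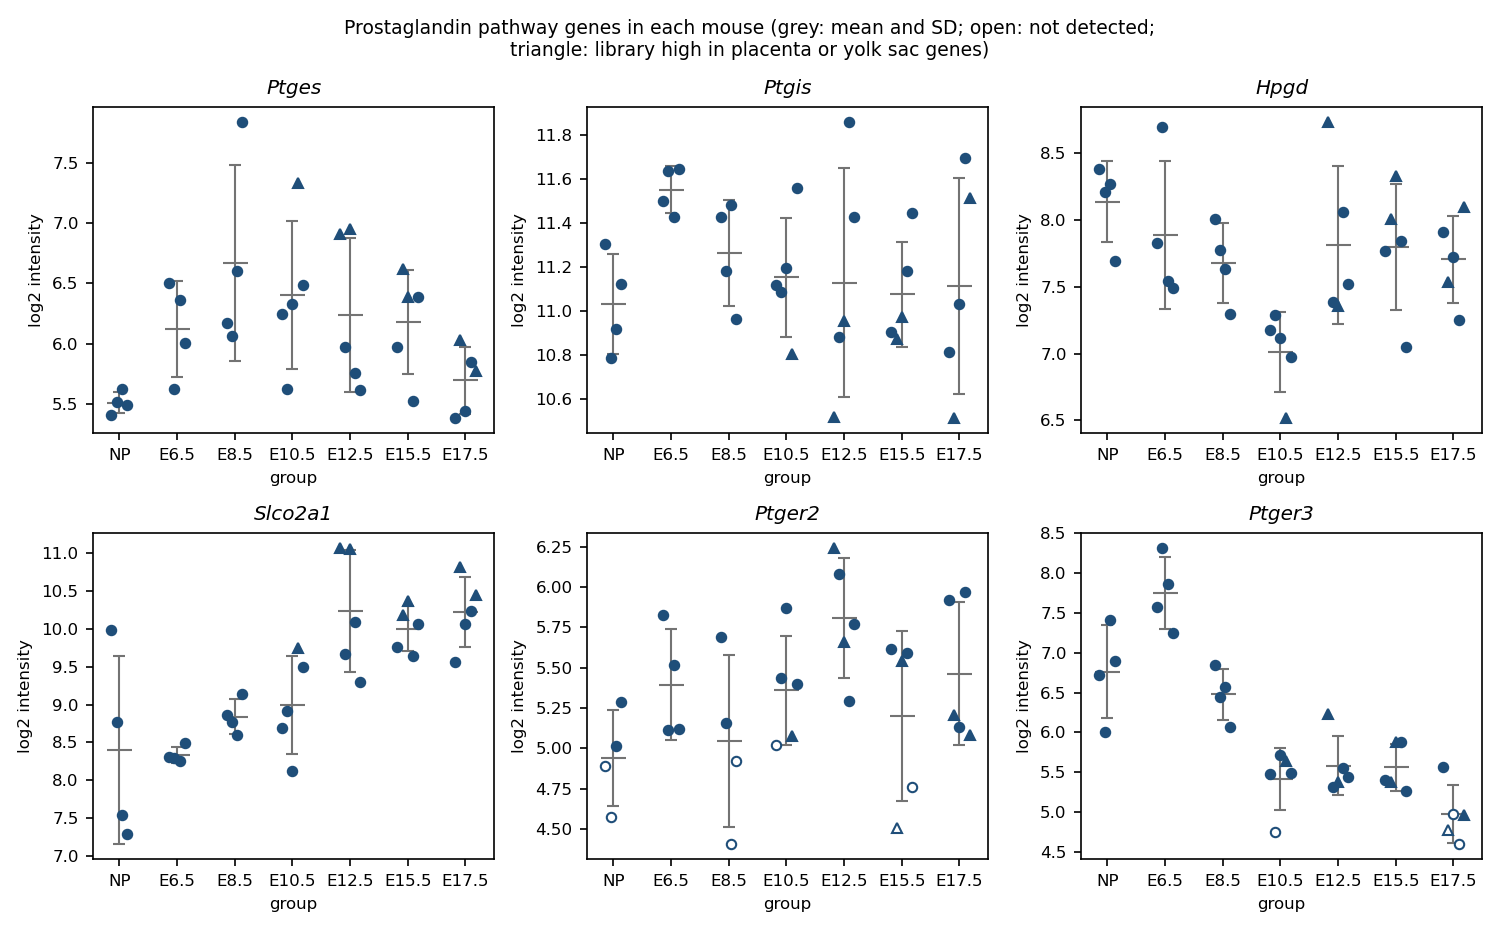
Log2 intensity (y axis) of the 6 measured genes in each mouse, by group (x axis). Each point is 1 mouse, the grey bar is the mean with its SD, open points are below the detection threshold and triangles are the 7 libraries set apart by placenta or yolk sac genes. Ptger3 is highest at E6.5 (mean 7.75) and lowest at E17.5 (mean 4.98), and the lowest mouse for Slco2a1 from E12.5 on is at 9.30.

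Ptger3 encodes EP3, a receptor for PGE2 that is best known for lowering cyclic AMP and favouring contraction of smooth muscle. Its level was highest just after implantation and fell in steps up to E10.5. In NP mice it was at 6.73, 6.00, 7.42 and 6.90. At E6.5 it was at 7.58, 8.32, 7.86 and 7.25, so that 3 of the 4 mice lay above every NP mouse. At E8.5 the values were 6.84, 6.44, 6.57 and 6.07, all below the lowest mouse at E6.5. At E10.5 they were 5.48, 4.75, 5.71, 5.65 and 5.49, again with no overlap with the time point before. The values stayed low from then on, near background like those at E10.5, where 4 of 5 mice were above the detection threshold. At E12.5 they were 6.23, 5.32, 5.38, 5.56 and 5.44, and at E15.5 5.41, 5.38, 5.88, 5.88 and 5.27. At E17.5 they were 5.56, 4.77, 4.98, 4.60 and 4.97, with 2 of 5 mice above the detection threshold, so the E17.5 mean lies close to background and the fold changes against E17.5 depend on how background is corrected.

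Ptger3 was higher at E6.5 than in NP mice by 0.99 ± 0.27 log2 (1.99-fold, adjusted p = 0.0164). It was the 1 member of 6 to change there, beside 8.2 percent of all genes. It then fell by 1.27 ± 0.27 log2 at E8.5 against E6.5 (2.42-fold lower, adjusted p = 0.00623), where 1 of 6 members and 3.84 percent of all genes changed, and by 1.07 ± 0.25 log2 at E10.5 against E8.5 (2.09-fold lower, adjusted p = 0.0129), where 1 of 6 members and 4.64 percent of all genes changed. The rise at E6.5 rests on single mice. Without NP replicate 2 it was 0.74 log2 (adjusted p = 0.109) and without E6.5 replicate 2 it was 0.81 log2 (adjusted p = 0.0873). The fall at E10.5 likewise missed the threshold without E8.5 replicate 1 (adjusted p = 0.0501) or E10.5 replicate 2 (adjusted p = 0.0524), while the fall at E8.5 passed it whichever mouse was left out.

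Over the whole of pregnancy the fall of Ptger3 was the largest change among the members. At E17.5 it was lower than at E6.5 by 6.86-fold (log2 difference -2.78 ± 0.25, adjusted p = 1.85e-09), with no overlap between the groups and with 2 of 6 members and 29.3 percent of all genes changed in that comparison. Without the 7 libraries the difference was -2.71 (adjusted p = 9.48e-07). With no background correction it was -1.31. In the order of the group means, E6.5 lay above NP, NP lay above E8.5 by 0.28 log2 (adjusted p = 0.601), and E8.5 lay above E12.5 by 0.90 log2 (adjusted p = 0.0159, and 0.0634 without E8.5 replicate 1). The means at E12.5, E15.5, E10.5 and E17.5 followed in that order, and no neighbours among these 4 differed beyond their spread (adjusted p from 0.234 to 0.99). The smooth muscle list had a median of 11.1 in E6.5 mice, 10.9 in E8.5 mice, 10.7 in E10.5 mice and 11.1 in E17.5 mice. The stroma list had medians of 10.3, 10.0, 9.73 and 9.56 in the same groups. The part of either list in the result was not tested.

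The promoter of Ptger3 is shown because this gene had the largest change, and for comparison with that of Slco2a1, which moved the other way. The 250 bases before the start of transcription (RefSeq, GRCm38.p6, chr3:157566626-157566875, plus strand) are given 5′ to 3′, with the letters of a GC box, GGGCGG, in capitals on either strand. It holds 3 of them and neither TATAAA nor the steroid receptor half-site TGTTCT on either strand. On either strand, GGGCGG is found in 32.7 percent of 32851 promoters of that length, TATAAA in 12.4 percent and TGTTCT in 16.1 percent.
Ptger3: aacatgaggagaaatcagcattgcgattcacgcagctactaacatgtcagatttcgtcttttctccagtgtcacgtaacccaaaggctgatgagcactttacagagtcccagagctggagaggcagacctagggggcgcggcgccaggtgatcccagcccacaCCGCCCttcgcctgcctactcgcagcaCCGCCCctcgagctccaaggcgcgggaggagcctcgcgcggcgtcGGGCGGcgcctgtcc

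The array holds another probe for Ptger3, and it did not show the same course. It was detected on 9 of 32 arrays, against 28 of 32 for the probe described so far, and its means were 5.12 ± 0.64 in NP mice, 5.08 ± 0.22 at E6.5 and 5.25 ± 0.57 at E8.5. From E10.5 on its means lay between 4.46 and 4.73 and it was detected in 2 of 20 mice. Tested for itself it differed within pregnancy (adjusted p = 0.017 over all probes), but its difference between E17.5 and E6.5 was -0.46 log2 (adjusted p = 0.118) and that between E8.5 and E6.5 was 0.17 log2 (adjusted p = 0.79). Of the 21 pairs of groups, 6 passed the threshold with this probe and 14 with the other. Lower means after E8.5 were seen with both probes, and the peak at E6.5 with 1. Ptger3 is known to be spliced into several receptor forms, and the sources used here do not say which of them each probe measures.

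**Figure D2:**
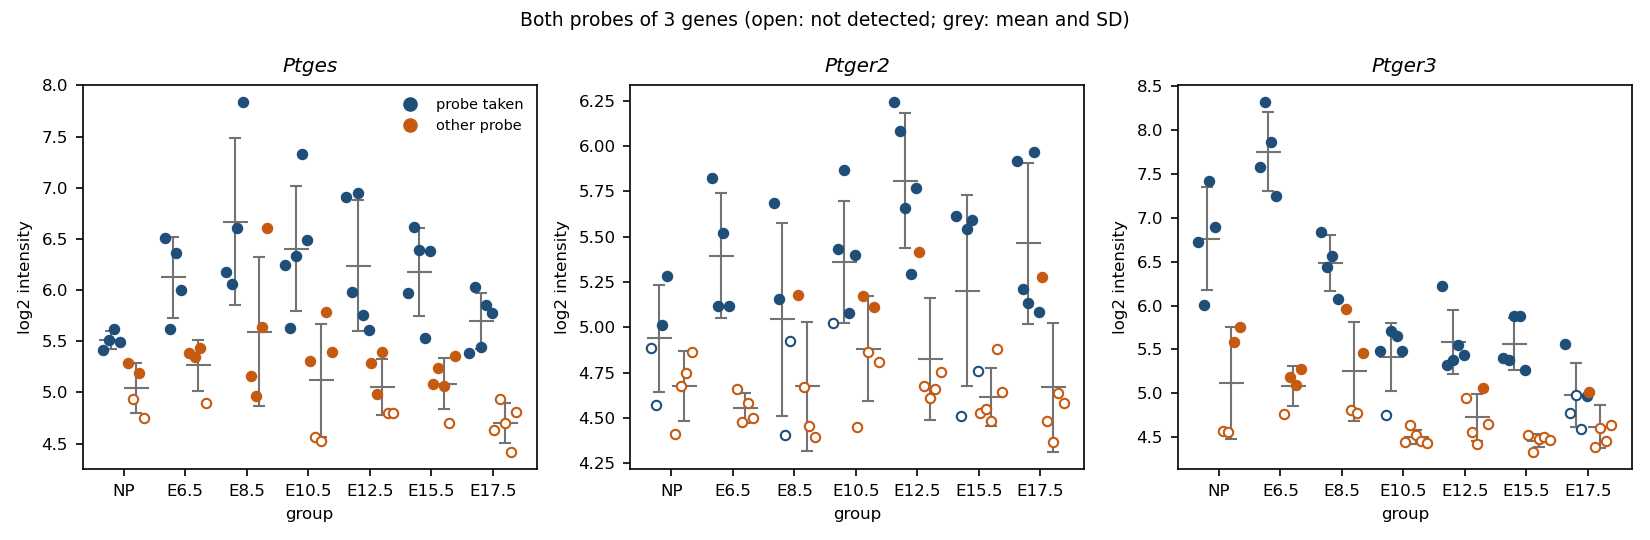
Log2 intensity (y axis) of both probes of Ptges, Ptger2 and Ptger3 in each mouse, by group (x axis), with blue for the probe taken, orange for the other probe, open points for values below the detection threshold and grey bars for mean and SD. The orange Ptger3 points show no peak at E6.5 (mean 5.08, against 5.12 in NP mice), and the other Ptger2 probe was detected on 5 of 32 arrays.

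Ptger2 encodes EP2, which raises cyclic AMP and is known for relaxing smooth muscle and for its role in the ovary and uterus around implantation. It was dim. Its probe was detected on 25 of 32 arrays, in 2 of 4 NP mice and in all mice at E6.5, E12.5 and E17.5. At E12.5 it was at 6.24, 6.08, 5.66, 5.29 and 5.77, against 4.89, 4.57, 5.01 and 5.28 in NP mice, where the lowest mouse at E12.5 lay just above the highest NP mouse. The rise at E12.5 over NP was 0.87 ± 0.27 log2 (1.83-fold, adjusted p = 0.0128), and it did not hold without NP replicate 2 (adjusted p = 0.0561) or without the 7 libraries (0.77 log2, adjusted p = 0.0638). At the other pregnant time points Ptger2 averaged between 5.04 and 5.46, and no pair of neighbours in the order of its means differed beyond the spread (adjusted p from 0.512 to 0.958). As NP mice lay near background, the fold change against NP depends on how background is corrected. The other probe of Ptger2, detected on 5 of 32 arrays, had means of 4.82 ± 0.34 at E12.5 and 4.68 ± 0.19 in NP mice. Tested for itself, it passed the threshold in 0 of 21 pairs.

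Slco2a1 encodes the prostaglandin transporter, which takes up PGE2, PGF2α and PGD2 from outside the cell. Its level rose in mid pregnancy and stayed high to E17.5. In NP mice it was spread widely, at 9.99, 8.77, 7.54 and 7.29. The mice at E6.5 lay close together at 8.30, 8.29, 8.26 and 8.49, and those at E8.5 were at 8.86, 8.77, 8.59 and 9.14. These 2 time points did not overlap but did not differ by the test (0.50 ± 0.43 log2, adjusted p = 0.605). The test takes 1 spread per gene from all 7 groups, and SDs reached 1.24 in NP mice and 0.81 at E12.5. With SDs of 0.10 at E6.5 and 0.23 at E8.5, it cannot show that these 2 time points are alike. At E10.5 the values were 8.69, 8.91, 8.12, 9.75 and 9.5. At E12.5 they were 11.07, 9.67, 11.06, 10.09 and 9.30, at E15.5 9.77, 10.18, 10.37, 9.64 and 10.06, and at E17.5 9.56, 10.82, 10.07, 10.24 and 10.44. Every mouse from E12.5 on lay above every mouse at E6.5 and E8.5.

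Slco2a1 was higher than at E6.5 by 1.90 ± 0.40 log2 at E12.5 (3.73-fold, adjusted p = 0.000636), by 1.67 ± 0.40 at E15.5 (adjusted p = 0.00197) and by 1.89 ± 0.40 at E17.5 (3.71-fold, adjusted p = 0.000555), and each of these held with any 1 mouse left out. In the E12.5 and E15.5 comparisons 2 of 6 members changed, Slco2a1 and Ptger3, beside 26.9 and 29.2 percent of all genes. No consecutive pair of time points differed for this gene. In the order of the means E12.5 came first, then E17.5 and E15.5, with differences of 0.01 and 0.22 log2 between neighbours (adjusted p = 0.995 and 0.924). E15.5 lay above the next, E10.5, by 1.01 log2 (adjusted p = 0.0851). Of the later comparisons, E17.5 against E8.5 (1.39 ± 0.40 log2, adjusted p = 0.0109) held with any mouse left out. E12.5 against E8.5 (adjusted p = 0.0179) missed the threshold without any 1 of 3 mice, E8.5 replicate 3 and E12.5 replicates 1 and 3. E15.5 against E8.5 (adjusted p = 0.0357) missed it without any 1 of 6 mice, replicates 1, 2 and 3 of E8.5 and replicates 2, 3 and 5 of E15.5, and E17.5 against E10.5 (adjusted p = 0.0214) without E10.5 replicate 1 or 3 or E17.5 replicate 2. In the first pair 2 of 6 members changed, beside 14.1 percent of all genes, in the next 2 of 6 beside 22.7 percent, in both cases Slco2a1 and Ptger3, and in the last 1 of 6 beside 18.3 percent.

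Slco2a1 was also high in the libraries with placenta or yolk sac genes. In all 7 it had the highest or second highest value of its time point. The decidua list (6 of 7 measured, among them Prl8a2, the decidual prolactin, and Htra1, a secreted serine protease) was the highest or second highest in the same 7. Its mean over genes ranged between 9.41 and 9.93 among E17.5 mice and between 7.94 and 8.25 among E6.5 mice, and its part in the level of Slco2a1 was not tested. Without these libraries Slco2a1 still differed within pregnancy (adjusted p = 0.0135, with 29.1 percent of all genes called). It was then higher than at E6.5 by 1.35 log2 at E12.5 (adjusted p = 0.027), 1.49 at E15.5 (0.0119) and 1.62 at E17.5 (0.00639). The difference from E8.5 no longer passed the threshold at E12.5 (0.84 log2, adjusted p = 0.278), E15.5 (0.98 log2, 0.122) or E17.5 (1.12 log2, 0.0674), nor did E17.5 against E10.5 (1.15 log2, 0.0755).

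**Figure D3:**
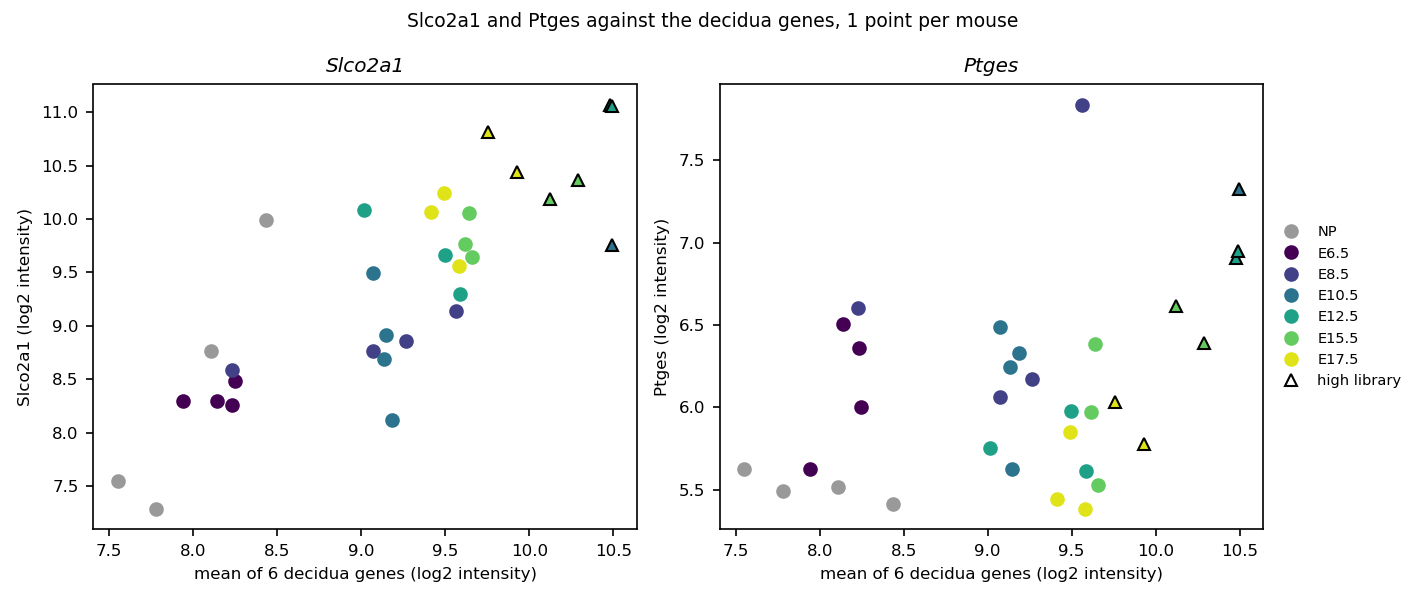
Log2 intensity of Slco2a1 (left) and Ptges (right) on the y axis against the mean log2 intensity of 6 decidua genes on the x axis, 1 point per mouse, coloured by group, with outlined triangles for the 7 libraries set apart by placenta or yolk sac genes. The triangles lie at 9.76 or higher on the x axis and, for Slco2a1, at 9.75 or higher on the y axis (different mice hold these lowest values), and NP replicate 1 stands apart from the other NP mice with Slco2a1 at 9.99.

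Against NP mice Slco2a1 was higher by 1.84 ± 0.40 log2 at E12.5 (3.58-fold, adjusted p = 0.000695), 1.61 ± 0.40 at E15.5 (3.05-fold, adjusted p = 0.00231) and 1.83 ± 0.40 at E17.5 (3.56-fold, adjusted p = 0.000663). In each case the groups overlapped because of NP replicate 1. That mouse also had the highest mean of the epithelium list among NP mice, 9.12, followed by 8.34 in replicate 2, 7.71 in replicate 3 and 7.89 in replicate 4. Slco2a1 at E6.5 and in NP mice had nearly the same mean, 8.34 ± 0.10 and 8.40 ± 1.24 (SD, n = 4 each).

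The promoter of Slco2a1 (RefSeq, GRCm38.p6, chr9:103008237-103008486, plus strand) is shown beside that of Ptger3, with the letters of TATAAA and GGGCGG in capitals. It holds 1 TATAAA that begins 29 bases before the start and 1 GGGCGG that begins 106 bases before it. TATAAA on the strand of the gene is found in 7.59 percent of the 32851 promoters, and none of the other 4 measured members with a promoter in the table (Ptges, Hpgd, Ptger2 and Ptger3) has it on either strand.
Slco2a1: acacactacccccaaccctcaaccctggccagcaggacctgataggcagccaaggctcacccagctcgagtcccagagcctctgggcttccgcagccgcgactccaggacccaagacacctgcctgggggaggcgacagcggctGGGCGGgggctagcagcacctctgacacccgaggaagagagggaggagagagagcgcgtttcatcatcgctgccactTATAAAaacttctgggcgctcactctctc

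Hpgd encodes 15-hydroxyprostaglandin dehydrogenase, the enzyme that begins the breakdown of PGE2 and PGF2α. It was lowest at E10.5, at 7.17, 7.29, 7.11, 6.52 and 6.98. In NP mice it was at 8.38, 8.20, 8.26 and 7.69, and at E6.5 at 7.82, 8.69, 7.54 and 7.49, so that no mouse at E10.5 reached either group. The difference was -1.12 ± 0.27 log2 at E10.5 against NP (2.17-fold lower, adjusted p = 0.00218), which held with any mouse left out and without the 7 libraries (-1.0 log2, adjusted p = 0.00399). At E10.5 against E6.5 it was -0.87 ± 0.27 log2 (1.83-fold lower, adjusted p = 0.0187), which was lost without E6.5 replicate 2 (adjusted p = 0.134) or E10.5 replicate 4 (adjusted p = 0.0615). In this pair 2 of 6 members changed, Ptger3 and Hpgd, beside 22.3 percent of all genes. The mean at E10.5 did not differ by the test from that at E8.5, the next in order (-0.66 log2, adjusted p = 0.175), and the F test of Hpgd within pregnancy gave an adjusted p of 0.233 without the 7 libraries.

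After E10.5 Hpgd had means of 7.81 ± 0.59 in E12.5 mice, 7.79 ± 0.47 in E15.5 mice and 7.70 ± 0.33 in E17.5 mice (SD, n = 5 each). E15.5 was higher than E10.5 by 0.78 ± 0.26 log2 (adjusted p = 0.0414, 1 of 6 members beside 12.2 percent of all genes), though the groups overlapped and the difference without the 7 libraries was 0.41 log2 (adjusted p = 0.445). It also missed the threshold without any 1 of 8 mice, namely replicates 1, 3, 4 and 5 of E10.5 and 1 to 4 of E15.5. The higher mean at E12.5 than at E10.5, by 0.80 ± 0.26 log2, did not pass the threshold (adjusted p = 0.126). The highest mouse at E12.5, at 8.73, and the lowest at E10.5, at 6.52, were both among the 7 libraries, E12.5 replicate 1 and E10.5 replicate 4.

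Ptges encodes the inducible microsomal synthase of PGE2. It was low and even in NP mice, at 5.41, 5.52, 5.62 and 5.49. All 4 were above the detection threshold but near background, so fold changes against NP depend on how background is corrected. At E8.5 it was at 6.17, 6.06, 6.60 and 7.84, and at E10.5 at 6.24, 5.63, 6.33, 7.33 and 6.49, all above every NP mouse, though the lowest at E10.5 by a narrow margin. The rise over NP was 1.16 ± 0.34 log2 at E8.5 (2.23-fold, adjusted p = 0.0211, the 1 member of 6 changed beside 13.3 percent of all genes) and 0.89 ± 0.33 log2 at E10.5 (1.86-fold, adjusted p = 0.0419). The decidua list had a median of 9.17 at E8.5 against 7.94 in NP mice, and E8.5 replicate 4, which had the highest Ptges of its day, also had the highest decidua list, 9.56. Its part in the rise was not tested. Both rises depend on single mice. Without E8.5 replicate 4 the one at E8.5 was 0.77 log2 (adjusted p = 0.144), and the other missed the threshold without any 1 of the 4 NP mice or of replicates 1, 3, 4 and 5 of E10.5, and without the 7 libraries (0.66 log2, adjusted p = 0.107).

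At E17.5 Ptges was at 5.38, 6.03, 5.44, 5.85 and 5.78, lower than at E8.5 by 1.96-fold (log2 difference -0.97 ± 0.33, adjusted p = 0.0282), and all below the lowest mouse at E8.5. This difference was also lost without E8.5 replicate 4 (adjusted p = 0.207) or without E17.5 replicate 1 (0.0647) or 3 (0.0615), while without the 7 libraries it was -1.11 log2 (adjusted p = 0.0137). In that pair 3 of 6 members changed, Ptges and Ptger3 lower and Slco2a1 higher, beside 24 percent of all genes. Within its time point Ptges was the highest or second highest in 6 of the 7 libraries with placenta or yolk sac genes, the exception being E17.5 replicate 5. Its other probe was detected on 19 of 32 arrays, reached its highest mean at E8.5 too (5.59 ± 0.73) and was not detected in any mouse at E17.5. With that probe E8.5 replicate 4 was at 6.60, and the other E8.5 mice lay between 4.97 and 5.64. The mean at E10.5 was 5.12 ± 0.55, against 5.04 ± 0.24 in NP mice. Tested for itself, that probe passed the threshold in 1 of 21 pairs, against 3 with the probe taken.

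Ptgis encodes prostacyclin synthase, which is known from endothelium and smooth muscle. It was detected on all 32 arrays and had the smallest differences of the 6 genes. Its mean was 11.0 ± 0.23 in NP mice, 11.6 ± 0.11 at E6.5 and 11.3 ± 0.24 at E8.5. The 4 later means lay between 11.1 and 11.2, with an SD of up to 0.52. All 4 mice at E6.5, between 11.4 and 11.6, lay above every NP mouse, between 10.8 and 11.3, and the difference was 0.52 ± 0.23 log2 (adjusted p = 0.204). No pair of groups passed the threshold for Ptgis, and neighbours in the order of its means differed by 0.01 to 0.29 log2.

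In the consecutive comparisons after E10.5 none of the 6 measured members passed the threshold in limma's test. Ptgs1, Ptgs2, Ptgfr and Ptger4 are not among these 6, so nothing is said of them here. Of all genes, 1.35 percent passed it at E12.5 against E10.5, 1.44 percent at E15.5 against E12.5 and 0.446 percent at E17.5 against E15.5. At an unadjusted p under 0.05 there were 2 of 6 members in the first pair, beside 11.7 percent of all genes, 1 in the next, beside 11.7 percent, and 1 in the last, beside 8.33 percent. E17.5 against E12.5 also had 0 of 6 past the adjusted threshold, beside 8.14 percent of all genes, and 1 at an unadjusted p under 0.05, beside 19.2 percent. Against NP, 3 of 6 members changed at E10.5, Ptges higher and Hpgd and Ptger3 lower, where 26.2 percent of all genes were called. There were 3 at E12.5, Slco2a1 and Ptger2 higher and Ptger3 lower (31 percent of all genes), and 2 each at E15.5 and E17.5, Slco2a1 higher and Ptger3 lower (33.1 percent of all genes at each). These comparisons share the NP mice. The difference of Ptger3 from NP mice was -1.34 ± 0.25 log2 at E10.5 (adjusted p = 0.000156). E12.5 mice had a difference of -1.18, E15.5 mice one of -1.20 and E17.5 mice the largest, -1.78, each with an SE of 0.25. All 4 held with any mouse left out, and only the E12.5 mice overlapped with NP. With 6 members, 2 called are 33.3 percent, close to the share of all genes at E15.5 and E17.5.

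**Figure D4:**
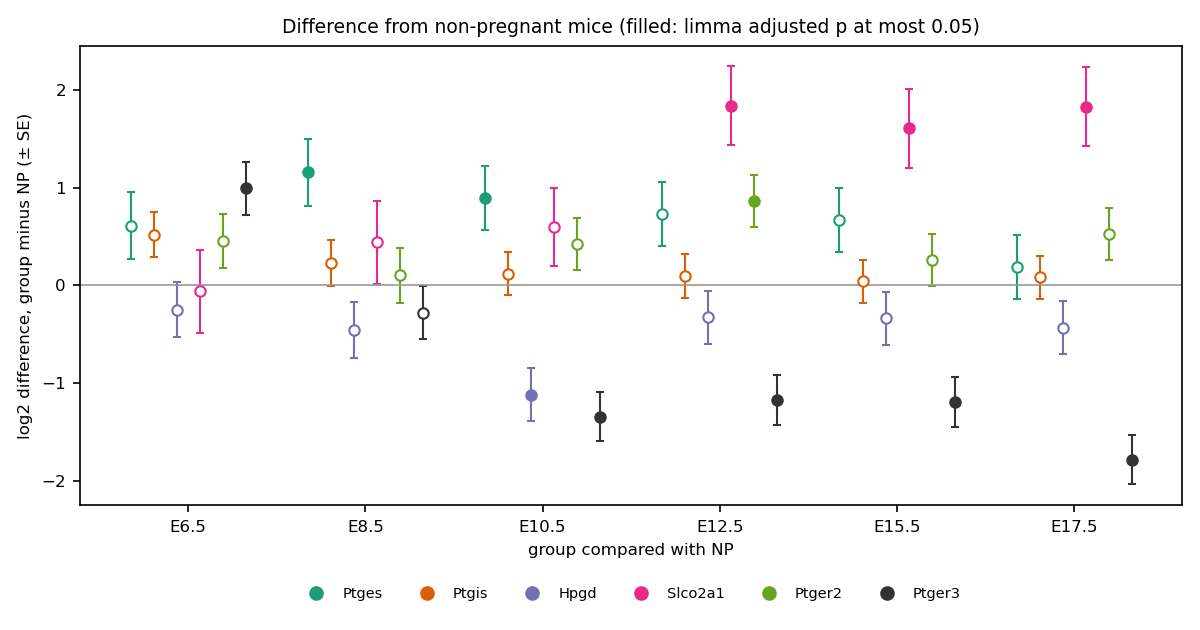
Log2 difference of each pregnant time point minus NP (y axis, with SE) for the 6 genes, by time point (x axis), with filled points where limma's adjusted p was at most 0.05. Slco2a1 lies at 1.61 or more from E12.5 on and Ptger3 at -1.18 or less from E10.5 on, while Ptgis stays between 0.04 and 0.52.

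The 2 genes that differed within pregnancy were set against all others by Pearson's correlation over the 32 mice, as a description. All points share the time course, so a high value says no more than that 2 genes followed it alike. The most like Slco2a1 were Htra1 (r = 0.871), which is 1 of the decidua genes, Ppp1r15a (r = 0.871), a stress-induced partner of a phosphatase, and Mocos (r = 0.862), which activates molybdenum enzymes. The most like Ptger3 were Hoxd4 (r = 0.89), a homeobox factor, Rbak (r = 0.889), a zinc finger repressor, and Epha7 (r = 0.88), an ephrin receptor.

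Of the wider pathway, 59 genes were listed and 49 measured, and 18 of the 49 (36.7 percent) differed within pregnancy by the F test, close to the 37.9 percent of all genes. The list of phospholipases and related genes, among them Plaa, had 0 of 10 past limma's adjusted threshold. It also had 0 of 10 at an unadjusted p under 0.05, beside 45.4 percent of all genes. The other synthases and reductases had 5 of 13, the genes of breakdown and transport 3 of 5, the other receptors 2 of 6 and the lipoxygenase and epoxide branches 8 of 15. In the 4 lists that concern prostaglandins 7 of 34 genes were higher and 0 were lower at E17.5 than at E6.5, where 12.3 percent of all genes were higher and 17 percent lower. The median difference was 0.17 log2, against -0.04 over all genes.

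The largest change was that of Akr1c18, an aldo-keto reductase that is listed with the prostaglandin F synthases and best known in mice for inactivating progesterone. It was at 6.99, 4.69, 4.62 and 4.52 in NP mice, where only replicate 1 was above the detection threshold. At E6.5 it was at 7.43, 8.04, 8.5 and 8.40, and at E8.5 at 10.77, 10.67, 4.56 and 9.61. All later mice were brighter. They lay between 11.46 and 12.48 at E10.5 and between 12.33 and 12.87 at E12.5. The E15.5 mice lay between 13.34 and 13.99 and the E17.5 mice between 13.62 and 14.05. The mean at E17.5 was 53-fold above that at E6.5 (5.73 ± 0.71 log2, adjusted p = 3.37e-07), with no overlap. E8.5 replicate 3, in which Akr1c18 was not detected, also had the lowest epithelium list of its time point, 5.30 against 6.56 to 7.07 in the other mice, and the lowest decidua list, 8.23 against 9.07 to 9.56. The part of either in the level of Akr1c18 was not tested. Its relative Akr1c14, known for acting on steroids, was at 7.29, 5.85, 4.86 and 5.00 in NP mice, where only replicate 3 was below the detection threshold. It was not detected in any mouse at E6.5 or E8.5 and was detected in all mice from E10.5 on. Against E6.5 it was at least 4.05-fold higher at E17.5 (adjusted p = 2.04e-06), where the bound takes the lowest signal of a detected probe on each array, or the probe's own where higher, for E6.5.

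Both synthases of PGD2 differed within pregnancy, with different peaks. Hpgds, the form known from mast cells and other cells of the blood lineage, was at 8.75, 7.27, 8.91, 8.09 and 7.82 at E17.5, against 6.18, 6.78, 6.67 and 6.65 at E6.5 (1.60 ± 0.33 log2, 3.02-fold, adjusted p = 0.000336). The mast cell list (6 of 8 measured, among them the proteases Cma1, Cpa3 and Mcpt4) had a median of 9.5 at E17.5, against 7.88 at E6.5 and 7.54 in NP mice. Its part in the level of Hpgds was not tested. Ptgds, the lipocalin form, was highest at E15.5, at 6.19, 7.33, 6.10, 6.64 and 5.37, and was higher there than at E6.5 by 1.39 ± 0.35 log2 (adjusted p = 0.00273). Without the 7 libraries, which include the mouse at 7.33, this difference was 1.13 log2 (adjusted p = 0.0202). At E17.5 its difference from E6.5 was 0.81 ± 0.35 log2 (adjusted p = 0.0812). Of the receptors for PGD2, Ptgdr was detected in all 5 mice at E12.5 and in no mouse at NP, E6.5 or E8.5, with a mean of 5.52 ± 0.32 at E12.5 (F test adjusted p = 5.71e-05). Ptgdr2 was detected in all 4 NP mice, at 5.53, 5.79, 5.29 and 5.29, and in 0 of 5 at E10.5, where it was at least 1.36-fold lower than in NP mice (adjusted p = 0.000441).

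**Figure D5:**
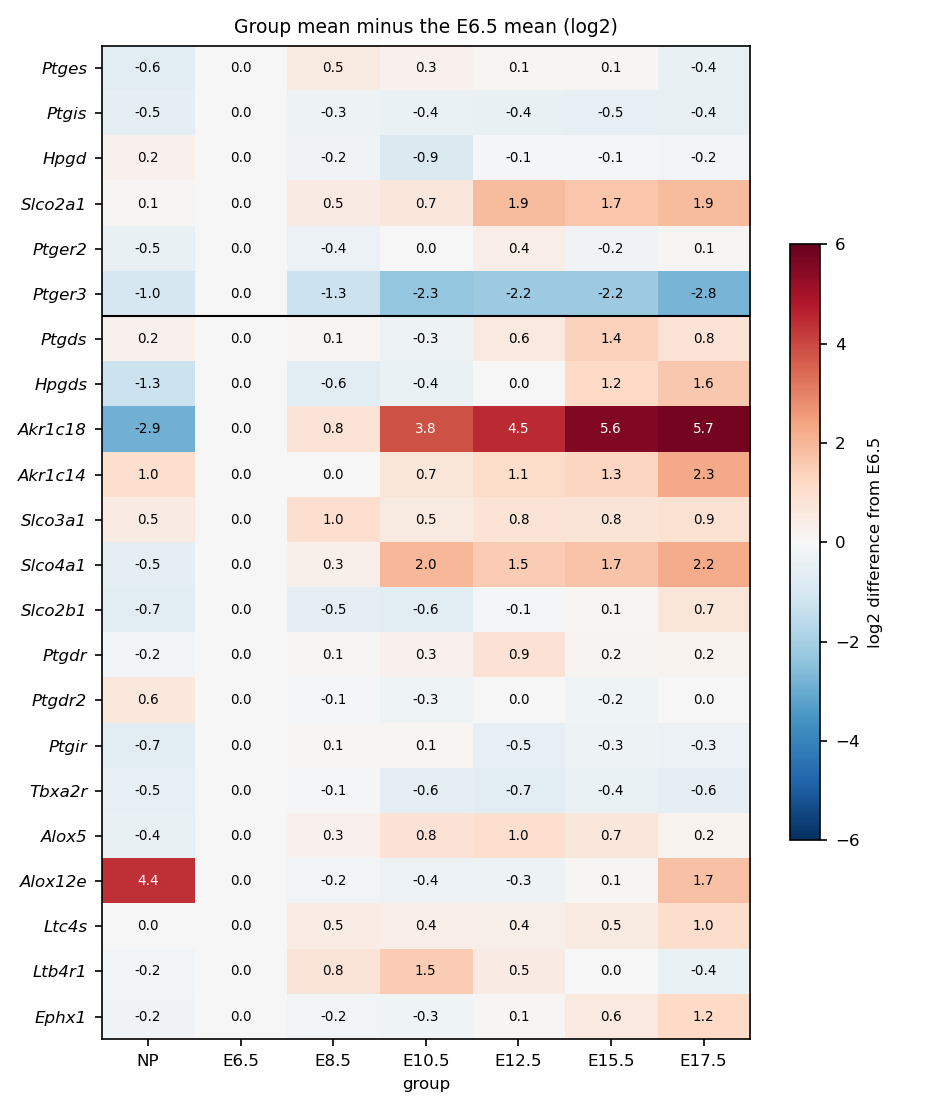
Group mean minus the E6.5 mean (log2, colour and number) for the 6 members (above the line) and 16 other genes of the pathway (below it), by group. Akr1c18 reaches 5.7 at E17.5, Alox12e stands at 4.4 in NP mice, and Ptger3 at E17.5, at -2.8, is the lowest of the pregnant values.

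The receptor for prostacyclin, Ptgir, was higher than in NP mice at E8.5 (0.75 ± 0.20 log2, adjusted p = 0.00975) and E10.5 (0.80 ± 0.19 log2, adjusted p = 0.00188), and at E10.5 its values of 5.81, 5.84, 5.94, 5.88 and 5.82 lay above all NP mice. Its F test (adjusted p = 0.0242) did not hold without the 7 libraries (0.193). The thromboxane receptor Tbxa2r did not pass the F test with the probe taken (adjusted p = 0.109) and passed it with its other probe (0.00345). Among the transporters able to carry prostaglandins, Slco4a1 was higher at E17.5 than at E6.5 by 2.22 ± 0.45 log2 (4.67-fold, adjusted p = 0.000326), Slco3a1 by 0.90 ± 0.19 log2 (adjusted p = 0.000547) and Slco2b1 by 0.71 ± 0.21 log2 (adjusted p = 0.00917). The last of these was 0.38 log2 without the 7 libraries (adjusted p = 0.16), and its highest value at E17.5, 11.08, was in replicate 2. Slco3a1 was already at its highest mean in E8.5 mice, 0.99 ± 0.20 log2 above E6.5 (adjusted p = 0.00524). Its means were 5.86 in NP mice, 5.34 in E6.5 mice, 6.33 in E8.5 mice and 6.24 in E17.5 mice. No pregnant time point passed the threshold against NP for this gene. The epithelium list (13 of 14 measured) had a median of 6.64 in E6.5 mice, 6.69 in E8.5 mice and 9.08 in E17.5 mice. Its part in the results of these transporters was not tested.

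In the branches beside the prostaglandins, Alox12e, the epidermal lipoxygenase of the mouse, was bright in NP mice, at 8.86, 9.39, 10.18 and 9.21. It fell by 4.38 ± 0.37 log2 at E6.5, to 5.06, 5.18, 5.19 and 4.69, in a comparison where 8.2 percent of all genes changed (adjusted p = 1.21e-09). It was detected in 0 of 9 mice at E8.5 and E10.5, and at E17.5 it was at 7.27, 4.92, 7.4, 7.81 and 6.47, higher than at E6.5 by 1.74 ± 0.35 log2 (adjusted p = 0.000276), with an overlap because of replicate 2. Alox5, which begins leukotriene synthesis, was highest at E12.5, by 1.00 ± 0.21 log2 over E6.5 (adjusted p = 0.000495). The leukotriene receptor Ltb4r1 was highest at E10.5, by 1.5 ± 0.23 log2 over E6.5 (adjusted p = 1.83e-05). The leukocyte list (7 of 9 measured) was highest at E10.5, with a median of 9.30, then 8.93 at E12.5, against 8.31 at E6.5, and its part in both was not tested. Ltc4s, which makes the leukotrienes that act on smooth muscle, and Ephx1, an epoxide hydrolase, were both highest at E17.5, by 1.05 ± 0.22 log2 (adjusted p = 0.000543) and 1.18 ± 0.23 log2 (adjusted p = 0.000233) over E6.5.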

How the data were processed

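The RNA of 32 uteri was hybridised to 32 arrays. The authors deposited an unnormalised linear intensity for every probe (76.7 to 29887 over all arrays) together with its detection p-value. The authors also deposited log2 values, made with limma (named in the submitters' processing notes) after correction of background and normalisation to equal quantiles. Values were computed anew here with neqc (offset 16, with the detection p-values standing in for negative control probes) in limma 3.58.1 and R 4.3.3, and differ from the deposited log2 values by at most 0.0339. Of 25697 probes, 5528 not detected on any array were left out. For 3704 genes with several probes, the one with the highest SD was taken.

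One linear model held a mean for each of 7 groups. Moderated tests, 2-sided, covered 21 pairs of groups and an F test over 6 pregnant time points, adjusted by Benjamini-Hochberg within each comparison over all genes. The test was checked on simulated data. Promoters came from RefSeq (GRCm38.p6), and figures were drawn with matplotlib 3.10.9.

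The members and gene lists were chosen with earlier results of these data known. Named were all members, the 12 other pathway genes with the largest range among those past the F test, the receptors for PGD2, prostacyclin and thromboxane, and the 3 genes most correlated with each member past the F test.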

Additional observations from a re-analysis of the deposited data

Results flagged for a closer look

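In 154 groups of 4 or 5 mice, over 22 genes, 11 values lay far from the other mice of their group, judged by the gap to the nearest mouse over the range of the group. Chance alone gives about 1 in 20 groups. Among the members, Ptger3 was low in E10.5 replicate 2, at 4.75, with the next mouse at 5.48, and high in E12.5 replicate 1, at 6.23, with the next at 5.56. E12.5 replicate 1 is among the 7 libraries set apart by their placenta or yolk sac lists.

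NP replicate 1 was high for 3 of the other genes, with Akr1c18 at 6.99 (next mouse 4.69), Slco4a1 at 9.53 (next 6.29) and Ltc4s at 7.45 (next 6.41). It was the NP mouse with the highest epithelium list and the highest Slco2a1. Ltc4s was also high in E8.5 replicate 3, at 7.80 (next 6.86), the mouse in which Akr1c18 was not detected, and low in E17.5 replicate 2, at 7.12 (next 7.71). Ltb4r1 was high in E15.5 replicate 5, at 7.20 (next 6.34). Ptgir was low in E8.5 replicate 2, at 5.28 (next 5.95). Ptgdr2 was high in E6.5 replicate 2, at 5.46 (next 4.66), and in E15.5 replicate 1, at 4.73 (next 4.55), where it was below the detection threshold.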

How the results depend on the processing

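The counts of changed members in all 21 pairs, the F tests of the named genes and every named gene's pair that passed the threshold were computed under 12 alternatives and with each of the 32 mice left out. Differences that did not pass were not followed. The alternative with no filter added only probes without a symbol, so it could not bring in further members. Of 8184 values for 186 single results, 7883 kept their direction and their side of the threshold, 293 no longer passed it, 8 came to pass it and 0 changed direction. Many of these values had little room to move, so the counts overstate how stable the results are. Leaving out a mouse from neither group of a pair changes only the spread and the adjustment, and an F test has no direction. The members changed at E15.5 against E10.5 numbered 1, and 0 with no background correction, median scaling, no filter or without the 7 libraries, where Hpgd missed the threshold. Array quality weights gave 2 there, 2 at E17.5 against E10.5 in place of 1 and 1 at E12.5 against E10.5 in place of 0. At E15.5 against E8.5 median scaling, no filter and the fit without the 7 libraries gave 1 in place of 2, as Slco2a1 missed the threshold (adjusted p = 0.0585, 0.053 and 0.122). Without the 7 libraries there was also 1 in place of 2 at E12.5 against E8.5 and 0 in place of 1 at E17.5 against E10.5. With 1 mouse left out the count ranged from 0 to 1 at E6.5 against NP, E8.5 against NP, E10.5 against E8.5 and E12.5 against E10.5, from 0 to 2 at E15.5 and at E17.5 against E10.5, from 1 to 2 at E10.5 against E6.5 and at E15.5 against E8.5, and from 1 to 3 at E12.5 against E8.5. The members differing within pregnancy numbered 2 or 3 in all fits, and the other pathway genes 16 to 22. Ptger3 at E17.5 against E6.5 was -1.31 to -2.78 log2 over the alternatives, with the smallest size under no background correction, and passed the threshold in each. Ptges at E10.5 against NP also missed it with no background correction (adjusted p = 0.0847), no filter (0.0615) and array weights (0.0574). Ptgir's F test missed it with cyclic loess (0.0511) and without E12.5 replicate 3 (0.0566). Hpgd's F test passed it with array weights (0.0356) and in 5 fits with 1 mouse left out (replicate 4 of E6.5, replicates 1 to 3 of E12.5 or replicate 5 of E15.5, down to 0.0234), and was 0.233 without the 7 libraries. Deviations from the group means had a mean r of 0.03 between mice with the same replicate number and of -0.009 between mice with other numbers. By the same measure, 12 of 32 mice were closest to their own number. These values do not settle whether the numbers pair the mice. With the replicate number as a block, Hpgd's F test passed the threshold (adjusted p = 0.0453) and 4 pairs of other pathway genes no longer did (Hpgds at E10.5 and Ptgdr at E17.5 against NP, Ephx1 at E15.5 and Ptgir at E12.5 against E6.5, adjusted p from 0.0525 to 0.0917). The slide as a block was not run, as the file headers give no slide. The fit without the 7 libraries was chosen after seeing the data. Signal near background limits Ptger2, both second probes of the receptors, Ptger3 from E10.5 on, and Ptges in NP mice and at E17.5.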
